A study of Mus musculus with 12 samples.

Results

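Sphingosine-1-phosphate (S1P) is a signalling lipid, and the 6 genes described here make it, destroy it or carry its receptors: the sphingosine kinases Sphk1 and Sphk2, the S1P lyase Sgpl1 and the receptor genes S1pr1, S1pr2 and S1pr3. They were chosen by name from the 12975 genes of the count table, and all 6 had a row. The choice was made with their values in all 4 groups already known, so their levels and fold changes are given as a description, without a p-value. Where a call, its loss or a count of calls is given for them, it describes the chosen genes and is no test of them.

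The libraries came from the muscularis externa of the small intestine, the muscle layer of the gut wall with its nerve plexus. All mice carried PLPCreERT2, a tamoxifen-inducible Cre recombinase directed to glial cells, and Rpl22HA (B6J.129(Cg)-Rpl22tm1.1Psam/SjJ), an allele of a ribosomal protein that gains an HA tag where Cre has been active; ribosomes of enteric glial cells (EGCs) can then be precipitated with their mRNA. All received 2 intraperitoneal injections of 100 µl tamoxifen at 15 mg/ml at an age of 10 to 12 weeks and were killed 3 to 4 weeks after the first one. Animals 1, 2 and 4 of T0 were naive, and animals 1, 3 and 4 of T3 had undergone intestinal manipulation 3 h earlier, an operation in which the bowel is handled so that its muscle layer becomes inflamed. The lysate of an animal was divided between a pull-down with an HA antibody and one with a mouse IgG1 control, which gave 4 groups of 3 libraries, HA T0, HA T3, IgG T0 and IgG T3. Values are counts of unique molecular identifiers (UMIs), given as CPM, counts scaled to the library total. Naive animals were not operated on, so handling, laparotomy and anaesthesia cannot be told apart within T3.

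S1P is formed when a sphingosine kinase phosphorylates sphingosine, which itself is released from ceramide by ceramidases. Phosphatases turn S1P back into sphingosine, whereas the lyase cleaves it irreversibly, and S1P that leaves the cell acts on a family of G protein-coupled receptors. S1P receptor 1 couples to Gi, while receptors 2 and 3 also couple to Gq and to G12/13. In the gut wall, S1P signalling is best known for lymphocyte traffic, for endothelial barrier function and for smooth muscle tone.

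Library totals were 1221788 to 2870591 counts in HA and 88136 to 1289833 in IgG, so depth was associated with both antibody and time. The IgG T3 libraries were the shallowest (88136, 92022 and 248522 counts), and 1 count there equals far more CPM than elsewhere. Rpl22, the tagged gene, was at 83.3 ± 9.02 CPM in naive HA libraries (SD, n = 3) and at 65.2 ± 5.89 after manipulation; the IgG libraries held 23.8 ± 7.595 and 24.4 ± 12.0 CPM. The summed level of 9 glial markers was 3582 to 4425 CPM in HA T0, 4387 to 5074 in HA T3, 175 to 235 in IgG T0 and 225 to 987 in IgG T3. Of these markers, 9 of 9 exceeded their IgG level at T0 and 7 of 9 at T3 (edgeR, adjusted p under 0.05). The HA pull-down was not glial alone: 3 markers of interstitial cells of Cajal summed to 2604 to 3366 CPM in HA T0 against 233 to 316 in IgG T0, and 7 smooth muscle markers still held 12180 to 22820 CPM in HA, against 39220 to 61490 in IgG. With time in HA, 2 of the 3 markers of interstitial cells of Cajal fell, with sums of 1170 to 1533 CPM at T3, while 3 of 9 glial markers rose and 1 fell. Further, 5 of 7 fibroblast, 5 of 5 mesothelial, 3 of 7 smooth muscle and 2 of 5 macrophage markers tested fell and 2 of 7 neuronal and 1 of 3 endothelial ones rose, while 0 of 2 platelet markers passed and the lymphocyte markers were too low to be tested.

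Where the 6 genes lie, and which letters stand before their starts, is given for orientation (GRCm38/mm10, Gencode M21). Sphk1 spans chr11:116530925-116536674 on the plus strand, Sphk2 chr7:45709467-45718002 on the minus strand and Sgpl1 chr10:61098642-61147703 on the minus strand. S1pr1 spans chr3:115710433-115715072 (minus), S1pr2 chr9:20962361-20976781 (minus) and S1pr3 chr13:51408639-51422797 (plus). Reads were counted near the 3′ end only, from 1000 bases before to 100 bases after it. For Sphk1, 709 of the 1100 bases of that window at the end of the gene were coding, and for the other 5 genes 0 bases were. The window of Sphk2 also holds 539 exon bases of Dbp, a clock-controlled transcription factor gene on the opposite strand.

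Promoter windows of RefSeq (GRCm38.p6, 250 bases before to 50 after a start) were at hand for 5 of the 6 genes, 10 windows in all; S1pr1 had no entry. They were searched on both strands for 6 motifs: the AP-1 site (TGAGTCA or TGACTCA), the cAMP response element or CRE (TGACGTCA), the GC box (GGGCGG), the TATA box (TATAAA), and the NF-kB and CArG motifs. Of 32851 windows of this length, 5.2% held the AP-1 letters, 1.79% the CRE letters, 35.7% a GC box, 13.6% a TATA box, 6.93% an NF-kB match and 1.63% a CArG match. These shares are per window and not per gene. More of the 10 windows belonged to Sphk1 than to any other gene, and some of them overlapped. Sequence pieces are given for the matches of Sphk1, which had by far the largest change with time of the 6 genes. Pieces are also given for the CRE, the rarest of the matches found, which stood in windows of Sphk2 and S1pr2. GC boxes stood in windows of Sphk2, S1pr2, Sgpl1 and S1pr3, and were the only matches in those of Sgpl1 and S1pr3. Of the GC boxes, only that of S1pr3 is among the pieces. Capitals mark the motif.
Sphk1, AP-1 letters, chr11:116531776-116531805, plus strand: gagcgtgtcgcTGAGTCAccttctcggaag
Sphk1, NF-kB match, chr11:116531931-116531960, plus strand: aaatactgagaaactcggtcGGGGAACTCC
Sphk1, TATA box, chr11:116531057-116531086, plus strand: ctgaggcccaagTATAAAatgtcctgcagg
Sphk2, CRE letters, chr7:45717981-45718010, minus strand: tggtgcacgggTGACGTCAcatgagcgcga
S1pr2, CRE letters, chr9:20976956-20976985, minus strand: taagagagctgTGACGTCAcgcggccgtga
S1pr3, GC box, chr13:51408586-51408615, plus strand: aatccagagactGGGCGGggacgtagcccg
The AP-1 letters of Sphk1 began 50 bases before the start at 116531837 and 124 bases before the one at 116531911, inside an annotated exon. The CRE letters of S1pr2 began 181 bases before its start, outside annotated exons, and those of Sphk2 began at base 4 from its start, in an annotated exon. A match is a description of letters; the libraries hold no measurement of factor binding.

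Sphk1, the sphingosine kinase known as the inducible one, was low in naive tissue and high 3 h after manipulation in both pull-downs. In HA T0 it was at 19.6, 15.1 and 15.0 CPM, and in HA T3 at 926, 943 and 998 CPM. In IgG T0 it was at 7.73, 20.6 and 7.75 CPM, and in IgG T3 at 408, 554 and 539 CPM. All 3 T3 libraries were therefore far above all 3 T0 libraries in HA and in IgG alike, while the naive HA and IgG libraries overlapped. Over summed counts the T3 level was 57.4 times the T0 level in HA (95% interval 47.9 to 69.3, exact conditional binomial, counting error only) and 46.6 times in IgG (30.8 to 73.6). The fitted log2 fold change was 6.10 (SE 0.22) in HA, rank 20 of 9441 genes tested when ordered from the largest rise, and 5.39 (SE 0.41) in IgG, rank 10 of 5219. At T3 the 3 HA libraries lay above the 3 IgG libraries, by a log2 fold change of 1.02 (SE 0.26).

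Within an animal, the ratio of HA to IgG CPM of Sphk1 was 2.53, 0.733 and 1.93 at T0 and 2.27, 1.70 and 1.85 at T3. For comparison, the median log2 fold change of the 9 glial markers between HA and IgG at T3 was 2.83, so Sphk1 was higher in HA by less than the median glial marker. The summed level of neutrophil and monocyte markers, of which 3 of 6 had a row, moved in the same direction as Sphk1: it was 1.39 to 5.59 CPM in HA T0 and 18.1 to 116 in HA T3, and 8.53 to 17.1 in IgG T0 (S100a8 and S100a9 at 0) and 21.7 to 250 in IgG T3. Some of these sums rest on few counts, as 3 counts equal 12.1 to 34.0 CPM in the IgG T3 libraries. Of these markers, 1 could be tested with time in HA, where it rose, and 0 in IgG. The part of neutrophils and monocytes in the Sphk1 values was not tested. In such bulk libraries, fewer cells of a type and less RNA per cell cannot be told apart.

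**Figure D1:**
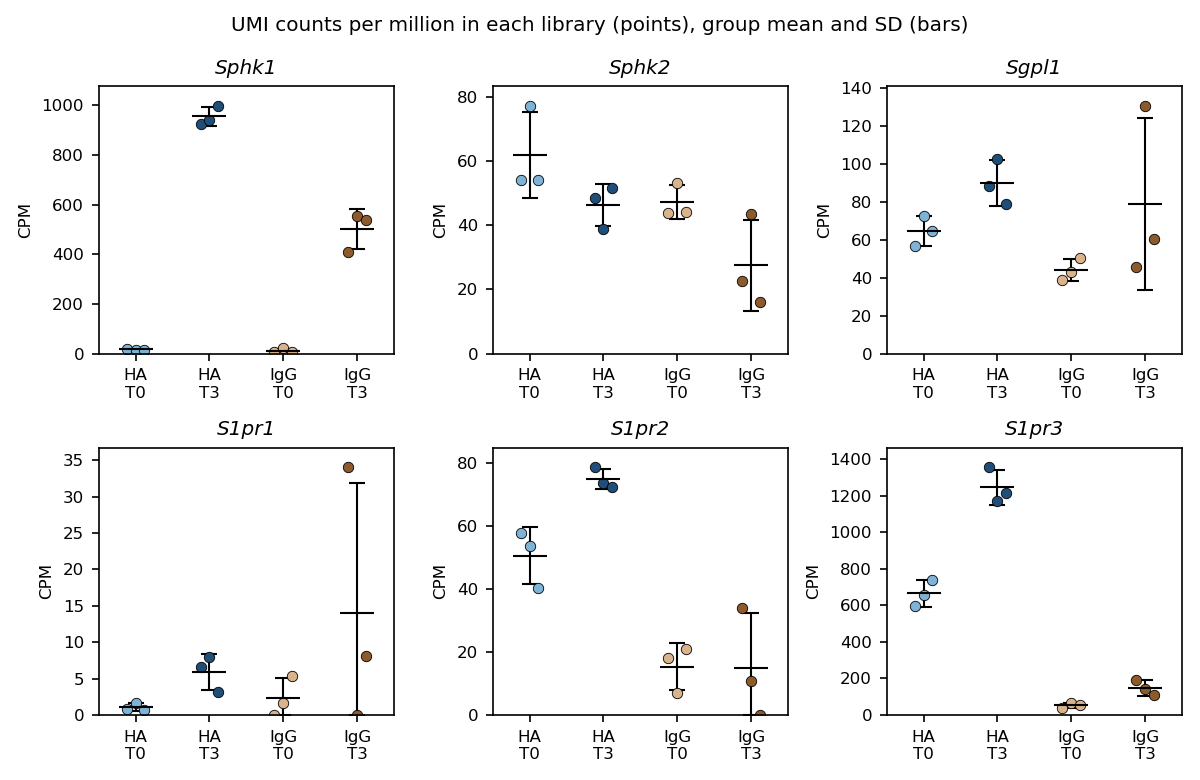
CPM (vertical axes, each from 0) of the 6 genes in the 4 groups; points are libraries, wide bars the mean and whiskers the SD of 3 libraries. Sphk1 lies at 15.0 to 19.6 CPM in HA T0 and 926 to 998 in HA T3, whereas S1pr3 separates the HA from the IgG libraries at both times.

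Sphk2, the second kinase, found largely in the nucleus and mitochondria, did not follow Sphk1. It was at 54.1, 77.1 and 54.0 CPM in HA T0 and at 48.3, 38.8 and 51.4 CPM in HA T3. The IgG T0 libraries held 43.8, 53.1 and 44.2 CPM and the IgG T3 libraries 22.7, 43.5 and 16.1 CPM, the latter from 2, 4 and 4 counts. The T3 libraries lay below the T0 libraries in both pull-downs by narrow gaps, from 51.4 to 54.0 CPM in HA and, narrower still, from 43.5 to 43.8 CPM in IgG, where the former is 4 counts. The fitted log2 fold changes with time were -0.15 (SE 0.22) in HA and -0.95 (SE 0.50) in IgG, and neither passed the threshold. The HA value turned to 0.04 without the HA T0 library of animal 2, the highest of the 12, and was -0.41 with total counts as scaling. Ordered by mean, the groups ran HA T0 (61.8 CPM), IgG T0 (47.0), HA T3 (46.2) and IgG T3 (27.4); HA T0 and IgG T0 did not overlap, whereas IgG T0 overlapped HA T3 and HA T3 overlapped IgG T3. Whether the counting used strand is unknown, so reads of Sphk2 and of Dbp cannot be told apart in the bases they share; Dbp was at 79.2 ± 37.0 CPM in HA T0 and 62.4 ± 13.7 in HA T3, a log2 fold change of -0.07 (SE 0.28).

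The balance of the kinases within a library needs no scaling between libraries. There were 0.362, 0.196 and 0.277 Sphk1 counts per Sphk2 count in HA T0 and 19.2, 24.3 and 19.4 in HA T3. The same ratio was 0.176, 0.387 and 0.175 in IgG T0 and 18.0, 12.8 and 33.5 in IgG T3. Every T3 library thus held more Sphk1 than Sphk2 counts and every T0 library fewer; 3′ counts of different genes are not a measure of their relative enzyme or transcript amounts, and the ratio is read only across groups.

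Sgpl1 encodes S1P lyase, the enzyme of the final and irreversible step of S1P breakdown. Its levels were 56.4, 72.6 and 64.5 CPM in HA T0 and 88.4, 102 and 78.6 CPM in HA T3, so the groups did not overlap, and the log2 fold change was 0.75 (SE 0.19). With total counts as scaling it was 0.48, under which the call was lost. In IgG it was at 38.6, 42.9 and 50.4 CPM at T0 and at 45.4, 130 and 60.4 CPM at T3; these groups overlapped, and animal 3 stood apart with the highest value of all libraries from 12 counts. HA T0 lay above IgG T0 without overlap (log2 fold change 0.49, SE 0.24), whereas HA T3 and IgG T3 overlapped (0.36, SE 0.36). Counts of Sphk1 per Sgpl1 count rose from 0.347, 0.208 and 0.232 in HA T0 to 10.5, 9.22 and 12.7 in HA T3, which sets the change of the kinase beside that of the lyase in the same libraries.

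S1pr3, the receptor that couples to Gi, Gq and G12/13, was the member that separated the pull-downs most. It was at 599, 656 and 740.3 CPM in HA T0 and at 1355, 1169 and 1215 CPM in HA T3. The IgG libraries held 38.6, 66.9 and 53.5 CPM at T0 and 193, 141 and 109 CPM at T3. The 4 groups did not overlap, and ran from HA T3 over HA T0 and IgG T3 down to IgG T0. The log2 fold change of HA over IgG was 3.60 (SE 0.23) at T0, rank 111 of 9823 genes, and 3.23 (SE 0.31) at T3, rank 94 of 7200. Within an animal, the HA CPM was 15.5, 9.81 and 13.8 times the IgG CPM at T0 and 7.02, 8.27 and 11.2 times at T3.

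With time, S1pr3 was higher at T3 in HA by a log2 fold change of 1.17 (SE 0.16; 0.91 with total counts as scaling) and in IgG by 1.39 (SE 0.37). Over summed counts these were ratios of 1.86 (95% interval 1.78 to 1.93) and 2.45 (1.75 to 3.37). The summed glial markers also differed in IgG between the times, with medians of 185 CPM at T0 and 902 at T3, and in HA with medians of 4346 and 4717; their part in the S1pr3 values was not tested. The IgG call of S1pr3 rested on every library: it was lost without any 1 of the 6 libraries, with fold changes from 1.17 to 1.53 on the log2 scale.

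**Figure D2:**
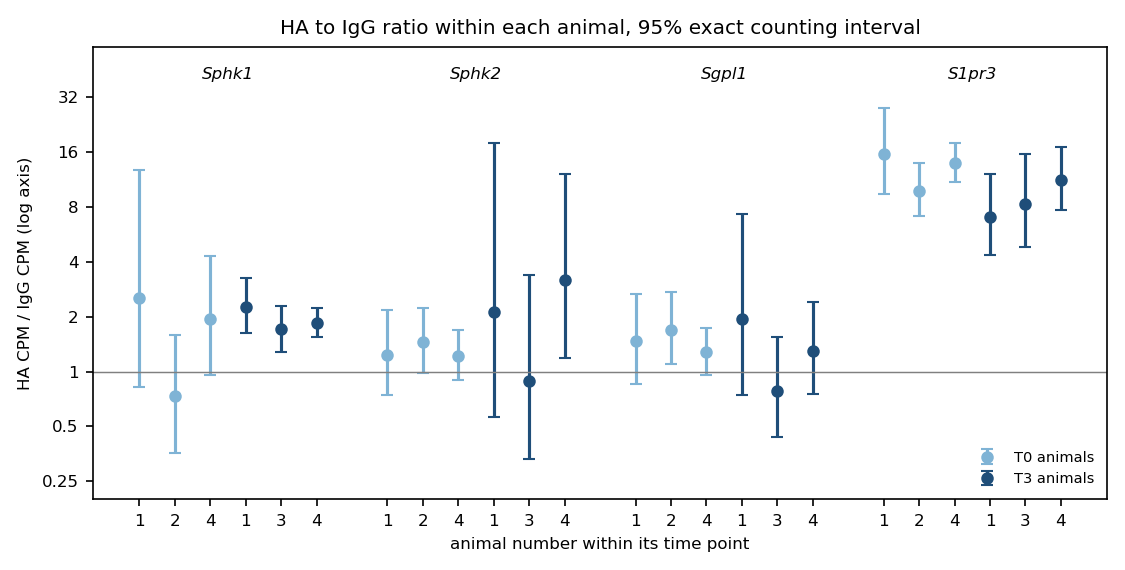
Ratio of HA to IgG CPM within each animal (log axis) for Sphk1, Sphk2, Sgpl1 and S1pr3, with 95% exact counting intervals, T0 animals light and T3 animals dark. The ratios of S1pr3 lie between 7.02 and 15.5 in all 6 animals, and those of the other 3 genes between 0.733 and 3.19.

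S1pr2, a receptor best known for G12/13, was at 57.6, 53.6 and 40.4 CPM in HA T0 and at 78.6, 73.6 and 72.4 CPM in HA T3. The groups did not overlap, and the log2 fold change was 0.83 (SE 0.21; 0.83 also in the fit of all 12 libraries, where the call was lost). In IgG T0 it was at 18.0, 6.86 and 20.9 CPM, below all HA libraries, with a log2 fold change of 1.63 (SE 0.36) for HA over IgG. The IgG T3 libraries held 3, 1 and 0 counts, or 34.0, 10.9 and 0 CPM. For the count of 0 in the library of animal 4, the exact 95% counting interval reaches 14.8 CPM, and the floor of 3 counts used here equals 12.1 CPM. Over summed counts the HA level at T3 was 8.01 times the IgG level (95% interval 3.10 to 29.6) and at T0 2.97 times (2.12 to 4.26). The T3 value rests on 4 IgG counts in all, and its fitted log2 fold change of 3.01 (SE 0.65) ran from 2.01 to 4.73 over the alternatives. IgG T0 and IgG T3 overlapped and were too low to be tested against each other.

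S1pr1, the receptor of endothelial cells and lymphocytes, was close to the limit of these libraries. Its counts were 2, 3 and 2 in HA T0, 8, 12 and 4 in HA T3, 0, 1 and 7 in IgG T0 and 3, 0 and 2 in IgG T3. In the main fits it passed the filter on low counts only in that of all 12 libraries, used for the interaction. Among the alternatives of HA T3 against T0, it was tested and called in 3: without the filter, in the fit of all 12 libraries and without the HA T3 library of animal 4. In CPM the HA libraries did not overlap between the times (0.697 to 1.68 at T0, 3.11 to 8.02 at T3), and over summed counts the ratio was 6.23 with a counting interval of 2.60 to 17.1. Every HA T0 library was at or under 3 counts, the number used here as the floor. The IgG groups overlapped each other and the HA T3 group. Endothelial markers, of which 9 of 10 had a row, summed to 32.3 to 55.9 CPM in HA T0 and 43.4 to 49.5 in HA T3, below IgG T0 (77.3 to 125) and IgG T3 (76.1 to 80.5, Tek at 0). Of the receptors, S1pr4 and S1pr5 had no row among the genes analysed here.

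Against all genes, the counts of the 6 genes that passed the test read as follows; the values used for the choice are the ones counted, so nothing is read from them. In HA T3 against T0, 4 of the 5 genes tested were higher and 0 lower (Sphk1, Sgpl1, S1pr2 and S1pr3), and all 5 did not overlap between the groups. Over all 9441 genes, 18.7% were higher, 15.1% lower and 50.8% did not overlap. The count became 5, with S1pr1, without the filter on low counts or without the HA T3 library of animal 4. With total counts as scaling it was 3, as Sgpl1 lost its call. It stayed at 4 in the fit of all 12 libraries, with S1pr1 in place of S1pr2. In IgG T3 against T0, 2 of 4 genes were higher (Sphk1 and S1pr3), and 1 without the filter on low counts or with any 1 of the 6 libraries left out, where S1pr3 lost its call; over 5219 genes, 4.43% were higher, 1.03% lower and 26.0% did not overlap. In HA against IgG at T0, 2 of 5 were higher (S1pr2 and S1pr3), with 16.0% higher, 14.4% lower and 44.8% without overlap among 9823 genes. At T3, 3 of 5 were higher (Sphk1, S1pr2 and S1pr3), and 2 without the HA library of animal 4, where Sphk1 lost its call; among 7200 genes, 11.8% were higher, 10.2% lower and 35.8% did not overlap. The contrasts share libraries, so they are not independent of each other.

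**Figure D3:**
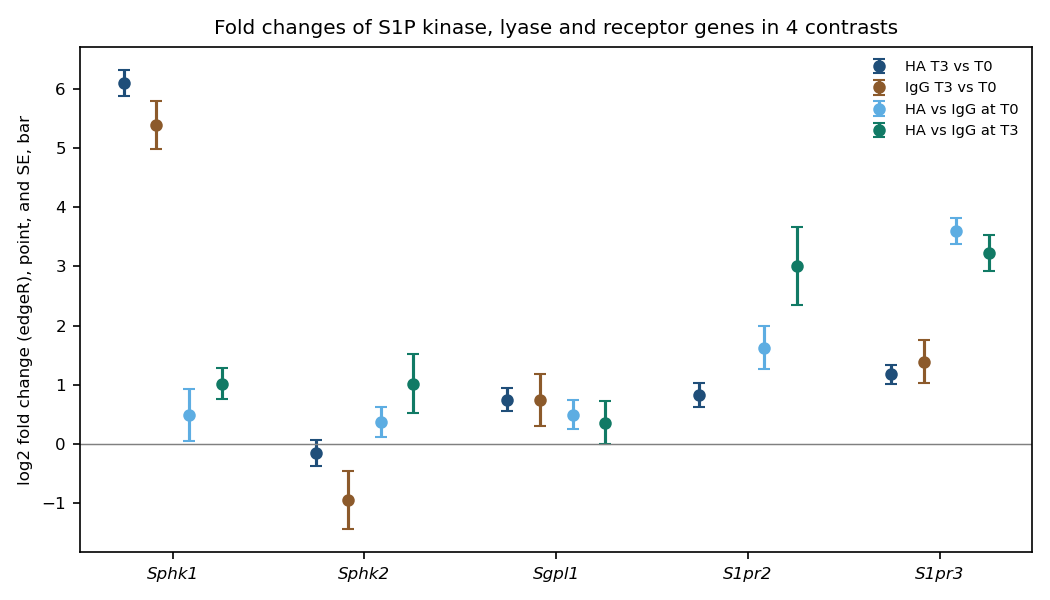
Log2 fold changes (points) with SE (bars) from edgeR for the 5 genes that could be tested, in the 4 contrasts of time and pull-down. Sphk1 stands out with time (6.10 in HA, 5.39 in IgG), S1pr3 between the pull-downs (3.60 at T0, 3.23 at T3); S1pr2 has no value for IgG T3 against T0.

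The interaction of antibody and time asks whether the pull-downs differed in their change; 0 of the 6 genes passed it in edgeR, with 0 at an unadjusted p under 0.05 and 0 in DESeq2. Over 10314 genes, 0.301% were more positive and 0.0291% more negative in HA, 31 and 3 genes, which became 6 and 2 with total counts as scaling. The differences in log2 fold change, HA minus IgG, were 0.76 (SE 0.45) for Sphk1, 0.90 (SE 0.54) for Sphk2, 0.11 (SE 0.43) for Sgpl1, 0.99 (SE 1.17) for S1pr1, 1.63 (SE 0.84) for S1pr2 and -0.10 (SE 0.35) for S1pr3. These are read against the median of all genes, which was 0.18 and shifted to -0.18 with total counts as scaling. The errors were widest for S1pr1 and S1pr2, with their few IgG counts. Sphk1 stayed positive under all 17 alternatives (0.18 to 1.09), while Sgpl1 and S1pr3 changed sign under some.

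The wider pathway was followed in 59 genes around the 6, of which 47 had a row. In HA T3 against T0, 37 could be tested: 4 rose, 7 fell and 26 did not pass, 10.8% and 18.9% against 18.7% and 15.1% of all genes. Their median log2 fold change was -0.01, and that of all genes -0.02. With total counts as scaling, 3 rose and 12 fell, and over all genes the share of calls that were higher went from 55.4% to 31.4%, with a median of -0.28.

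The ceramidases, the ceramide synthases and de novo synthesis held 4 of the 7 genes that fell. Of those tested, 1 of 1 ceramidase, 1 of 3 ceramide synthases and 2 of 4 genes of de novo synthesis fell, against 15.1% of all genes. The lists held 5, 6 and 11 genes, so many of them could not be tested. Asah1, the acid ceramidase that frees sphingosine in lysosomes, fell from 162 ± 32.6 to 52.7 ± 18.7 CPM (n = 3; log2 fold change -1.34, SE 0.23, edgeR adjusted p 0.000141). Sptssa, a small subunit of serine palmitoyltransferase, the first enzyme of sphingolipid synthesis, fell from 98.7 ± 12.1 to 27.04 ± 13.5 CPM (-1.58, SE 0.27, adjusted p 0.000219). Degs1, the desaturase that completes ceramide, fell from 738 ± 71.4 to 338 ± 58.8 CPM (-0.86, SE 0.18, adjusted p 0.000873). Cers2, a ceramide synthase for very long acyl chains, fell from 220.1 ± 25.3 to 95.4 ± 18.4 CPM (-0.94, SE 0.19, adjusted p 0.000899). In all 4 genes the T3 libraries lay below the T0 libraries in CPM. Over all 9441 genes tested, 50.8% did not overlap between these groups, in either direction. Summed markers of interstitial cells of Cajal (2604 to 3366 CPM in HA T0, 1170 to 1533 in HA T3) and of fibroblasts (1057 to 1392 and 312 to 546) moved in the same direction. So did those of macrophages (262 to 539 and 142 to 239), mesothelium (186 to 248 and 27.3 to 34.8) and smooth muscle (14840 to 22820 and 12180 to 14550). Glial, neuronal, endothelial, platelet, and neutrophil and monocyte sums had higher medians at T3. The part of all these cell types in these values was not tested. Acer2, a Golgi ceramidase, and Sptlc2, a catalytic subunit of serine palmitoyltransferase, did not pass the filter on low counts; no HA T0 library held more than 5 counts of Acer2 or 6 of Sptlc2.

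Among the enzymes that dephosphorylate S1P, the lipid phosphatases Ppap2a (Plpp1) and Ppap2b (Plpp3) fell. Ppap2a went from 142 ± 11.1 to 60.3 ± 17.5 CPM (-0.96, SE 0.21, adjusted p 0.00129), and Ppap2b from 196 ± 62.8 to 99.4 ± 19.8 CPM (-0.71, SE 0.22, adjusted p 0.0159). The call of Ppap2b was lost without the HA T0 library of animal 4 or the HA T3 library of animal 1 or 4 (adjusted p 0.0816, 0.0648 and 0.105 in edgeR). The S1P-specific phosphatases did not pass: Sgpp1 was at 79.4 ± 7.22 CPM at T0 and 79.6 ± 15.8 at T3, and Sgpp2 at 25.8 ± 2.58 and 15.5 ± 6.91. Smpd1, the acid sphingomyelinase, fell from 359 ± 39.5 to 195 ± 20.4 CPM (-0.62, SE 0.18, adjusted p 0.0106).

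Of the 14 genes for G proteins, exchange factors and arrestins, 3 rose, 0 fell and 11 did not pass; 21.4% rose, near the 18.7% of all genes. Gna13, the G13 alpha subunit, was at 38.8 ± 10.3 CPM at T0 and rose to 62.0 ± 10.2 (0.94 on the log2 scale, SE 0.22, edgeR adjusted p 0.0029). Arhgef1, a guanine nucleotide exchange factor that G13 activates, rose by 0.93 (SE 0.21, adjusted p 0.00221), from 41.6 ± 3.84 to 65.5 ± 14.6 CPM. Outside these 14 genes, Cerk, which phosphorylates ceramide and is listed with the sphingomyelin and glycosphingolipid enzymes, rose by 0.88 (SE 0.21, edgeR adjusted p 0.00364). Arrb1, an arrestin that desensitises receptors, also rose, by 0.59 (SE 0.18, adjusted p 0.0173), and is named after its values were seen; its call was lost without the HA T0 library of animal 1 or the HA T3 library of animal 4 (0.0599 and 0.133), with total counts as scaling (0.168) and in the fit of all libraries (0.0797). Spns2, the S1P exporter, was at 14.6 ± 4.91 CPM at T0 and 18.8 ± 5.27 at T3 (0.66, SE 0.32, adjusted p 0.121), and Ugcg, the glucosylceramide synthase, at 7.26 ± 5.26 and 9.24 ± 3.38.

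**Figure D4:**
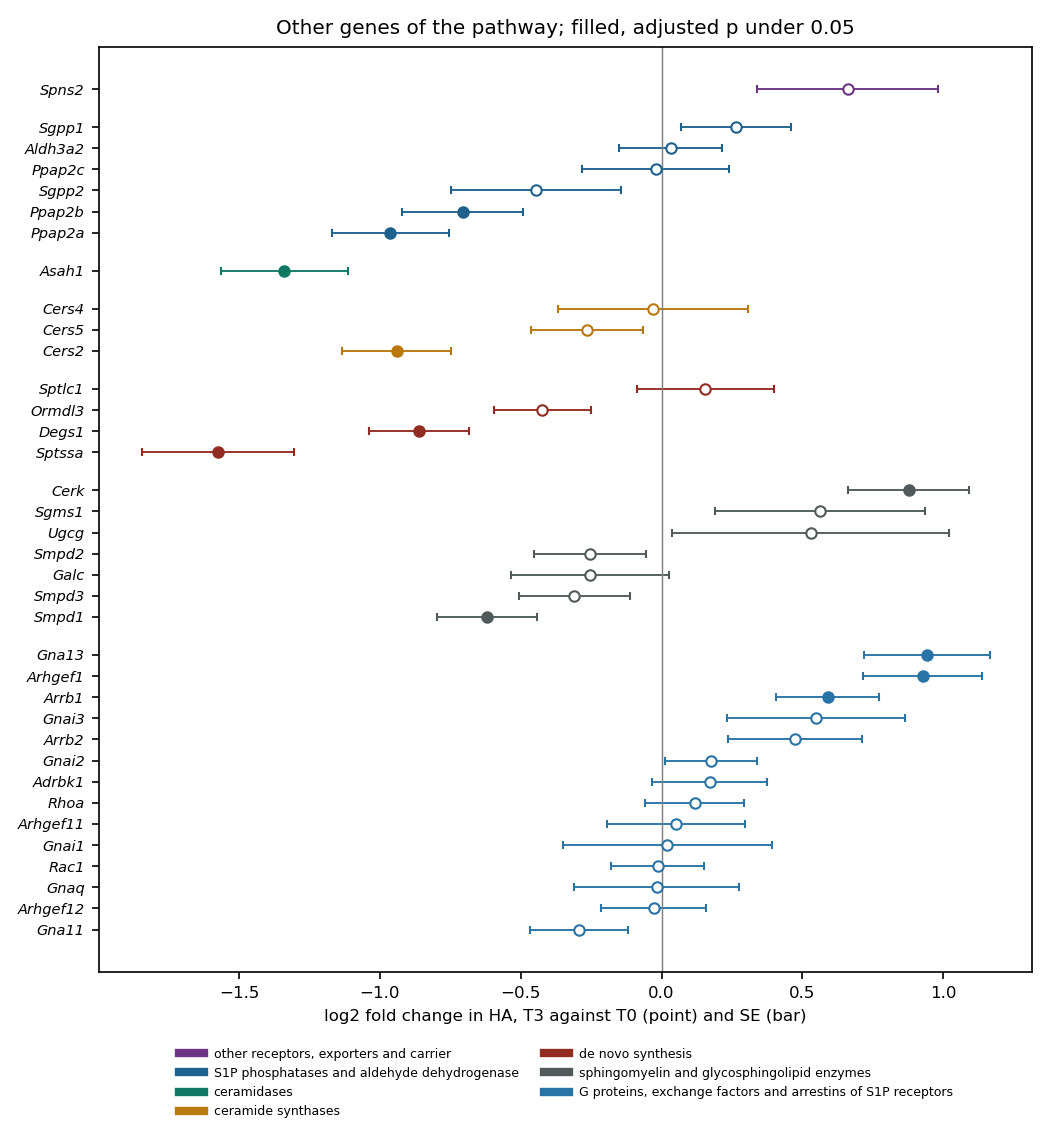
Log2 fold change in HA, T3 against T0, of 36 of the 37 pathway genes that could be tested, grouped by role; bars are SE and filled points passed an adjusted p under 0.05. There are 7 filled points left of 0, with Sptssa (-1.58) and Asah1 (-1.34) the lowest, and 4 right of 0.

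In IgG T3 against T0, 0 of 28 pathway genes passed in edgeR, with 5 at an unadjusted p under 0.05 and 0 in DESeq2. The interaction likewise had 0 of 39, with 0 at an unadjusted p under 0.05 and 0 in DESeq2. The lower depth of IgG moves with this count, and its part was not tested. The 7 genes that fell with time in HA had these log2 fold changes in IgG, with SE from 0.29 to 0.57. Sptssa was at -1.08, Asah1 at -0.99, Cers2 at -0.57, Ppap2a at -0.43, Smpd1 at -0.32, Ppap2b at -0.29 and Degs1 at 0.04.

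Between the pull-downs in naive tissue, 40 pathway genes were tested, of which 13 were higher in HA, 4 lower and 23 did not pass, 32.5% and 10.0% against 16.0% and 14.4% of all genes; their median was 0.26 on the log2 scale and that of all genes -0.02. Of the sphingomyelin and glycosphingolipid enzymes 4 of 8 were higher in HA and 0 lower, of the ceramide synthases 2 of 3 and 0, and of de novo synthesis 3 of 6 and 0. Higher in HA were Galc, the galactosylceramidase, by 2.26 (SE 0.42, edgeR adjusted p 0.00122), Asah1 by 1.74 (SE 0.29, 0.000578) and Smpd1 by 1.25 (SE 0.22, 0.00068). Degs1 (1.71), Ppap2b (1.42), Cers2 (1.26), Cers5 (1.12), another ceramide synthase, and Ormdl3 (0.97), a brake on serine palmitoyltransferase, were higher as well. Gnai3, a Gi alpha subunit, was lower (-1.51, SE 0.33, adjusted p 0.00314). Some higher calls were not firm either. Named after their values were seen, Sptssa lost its call without any 1 HA library or IgG animal 2 or 4. Rac1, from the list with the G proteins, lost it without any 1 HA library or IgG animal 4. The 13 higher genes became 11 without any 1 HA library or IgG animal 4, 12 without IgG animal 2 and 15 without IgG animal 1. The other 3 that were lower, also named after their values were seen, were less firm than Gnai3. Arhgef1 lost its call without HA animal 1 or 4 or IgG animal 2 or 4, Gnai1 without HA animal 2 or 4 or IgG animal 1 or 4, and Ppap2a whichever of the 6 was left out (highest adjusted p 0.163). With the animal as a block, 23 pathway genes passed, 15 higher and 8 lower.

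At T3, 36 were tested and 1 was higher and 6 lower in HA, 2.78% and 16.7% against 11.8% and 10.2% of all genes, and the median was 0.06 against 0.02. Adrbk1 (Grk2), a receptor kinase, was lower (-1.27, SE 0.26, edgeR adjusted p 0.00201) also without any 1 library. Ppap2a (-1.25), Arrb2 (-1.29), Gnai1 (-1.79), Smpd2 (-0.83) and Ugcg (-1.77) were lower and Smpd3 higher (1.18), and each of these lost its call without some of the 6 libraries: Ppap2a without HA or IgG animal 4, Arrb2 without HA animal 4 or IgG animal 1 or 3, Gnai1 and Ugcg without IgG animal 1 or 4 (without any 1 HA library they did not pass the filter on low counts and had no test), Smpd3 without HA animal 3 or 4 or IgG animal 1 or 4, and Smpd2 whichever of the 6 was left out. The count of 7 became 4 without HA animal 1, 3 without HA animal 3, 1 without HA animal 4 and 2 without IgG animal 4. The balance of directions turned round under some settings: 8 were higher and 3 lower without the filter on low counts, 11 and 3 in the fit of all 12 libraries, each sharing 4 of the 7 genes, and 5 and 2 without IgG animal 1, sharing 2. Over all genes, 53.6% of the calls were higher, against 60.5% without the filter and 69.0% in the fit of all 12 libraries.

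Genes whose pattern was most like that of each member were ranked by Pearson's r of log2 CPM over the 12 libraries, among 10314 genes; the libraries share group, depth and animals, so r is a description only. For Sphk1 the 5 closest were Fosl1 (r = 0.996), an AP-1 subunit, Ppp1r15a (0.994), which restores translation after stress, Csrnp1 (0.994), Gadd45b (0.994), a stress-response gene, and Nfkbia (0.992), the inhibitor of NF-kB. With another scaling or a prior count of 0.5, 4 of these 5 stayed and Jun, another AP-1 subunit, took the place of Nfkbia. Fosl1 was at 0.82 to 1.89 on the log2 CPM scale in HA T0 and at 8.65 to 9.39 in HA T3, and at 0.82 to 1.77 in IgG T0 and 6.89 to 7.26 in IgG T3, so it had the same order of groups as Sphk1, with the naive groups overlapping. The value 0.82, shared by HA T0 animal 2 and IgG T0 animals 1 and 4, is what a count of 0 gets on this scale. The naive overlap of Fosl1 thus lies at the floor.

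**Figure D5:**
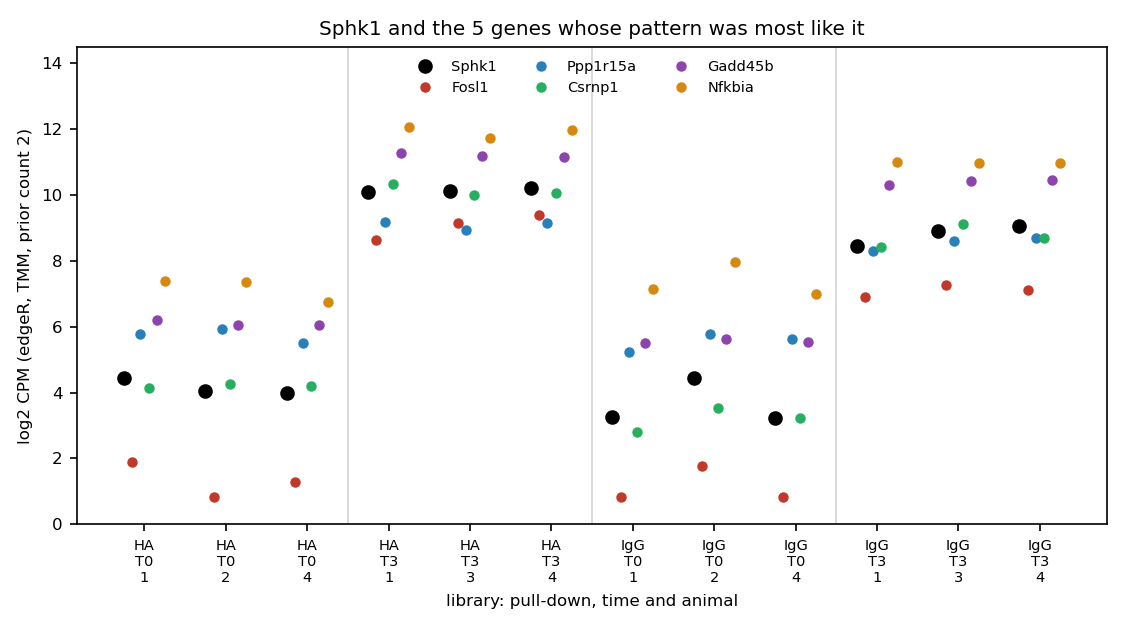
Log2 CPM (edgeR, prior count 2) of Sphk1 and the 5 genes most like it in each of the 12 libraries, points of a library offset sideways. In all 6 genes the T3 libraries of both pull-downs lie above all T0 libraries, with HA T3 above IgG T3.

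For S1pr3 the closest genes were Cadm4 (r = 0.992), a cell adhesion molecule of Schwann cells, Sdc3 (0.990), a syndecan, and Itm2c (0.987). For S1pr2 they were Fads2 (0.983), a fatty acid desaturase, Enpp2 (0.962), which encodes autotaxin, the enzyme that makes lysophosphatidic acid, and Ctsb (0.953), a cathepsin. For Sphk2 they were Poll (0.949), Agtrap (0.941) and Men1 (0.933), and for Sgpl1 H19 (0.951), Por (0.946) and Tnfrsf1a (0.943). For S1pr1, with at most 12 counts in a library, they were Lilr4b (0.927), Nacc1 (0.913) and Larp7 (0.901). Among the 6 genes themselves, r was highest between S1pr2 and S1pr3 (0.748).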

How the data were processed

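RNA of 12 pull-down libraries (6 animals, 4 groups of 3) was sequenced with a bulk variant of MARS-seq, a 3′ method with UMIs. The deposited values are counts per gene, made by the authors with cutadapt, STAR 2.4.2a on mm10 and HTSeq over a window of 1000 bases before to 100 after each 3′ end; DESeq2 1.26.0 is also listed in their processing notes. Strand use is not given in the sources used here. The series table and single files had 0 differing values. Library totals and the CPM that 3 counts allow (1.05 to 34.0) set the precision.

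The 6 genes, the pathway and marker lists and the tests were chosen with earlier results of these data known. Tests used edgeR 4.0.16 under R 4.3.3 (quasi-likelihood, robust, TMM scaling, filterByExpr, Benjamini-Hochberg over all genes tested, threshold 0.05), in fits of the 6 libraries compared and, for the interaction, of all 12, after testing on simulated data. HA and IgG of 1 animal share a lysate; their deviations from group means correlated by 0.268 to 0.273 at T0 and 0.0887 to 0.162 at T3, each above those between animals. T3 and T0 come from different animals. Named pathway genes were 10 fixed ones in HA T3 against T0 and those past the threshold, at most 10 per contrast in order of p; some of these are not reported here singly but remain in all tests and counts. Intervals cover counting error only. Alternatives were DESeq2 size factors, total counts, no filter, DESeq2 1.42.0, a fit of all 12 libraries, an animal block, leaving out each library and, for r, a prior count of 0.5.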

Additional observations from a re-analysis of the deposited data

How the results depend on the processing

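The direction of the fold changes of Sphk1, Sgpl1, S1pr2 and S1pr3 was the same in all alternatives of the 4 contrasts in which they were tested. Sphk2 in HA T3 against T0 was -0.293 to 0.0351 with 1 library left out, the latter without the HA T0 library of animal 2. In the interaction, Sgpl1 turned to -0.0453 with DESeq2 size factors, -0.25 with total counts and -0.0241 in DESeq2, and ranged from -0.0958 to 0.456 with 1 library left out; S1pr3 ranged from -0.311 to 0.0688, the latter without the IgG T3 library of animal 1. The cause was not tested.

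Counts of calls over all genes moved most where IgG T3 entered. In IgG T3 against T0 there were 285 calls, 519 without the filter and 705 in the fit of all libraries, which called 1 pathway gene, Sgpp1; leaving out 1 library gave 162 to 334. In HA against IgG at T3, 7 pathway genes (1 higher, 6 lower) became 11 without the filter (8 higher, 3 lower) and 14 in that of all 12 (11 higher, 3 lower), so the balance of directions turned round, and 1 to 7 with 1 library left out, with 849 to 1977 calls over all genes. The 34 interaction calls became 20 with DESeq2 size factors, 8 with total counts and 80 in DESeq2, and 5 to 95 with 1 library left out.

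With the animal as a replicate block, the interaction had 158 calls over all genes and 0 in the pathway; HA against IgG had 23 pathway calls in naive tissue and 7 after manipulation. The time contrasts could not be blocked, as no animal is in both. Depth limits S1pr1 in all groups and S1pr2 in IgG T3.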
